A study of Mus musculus with 15 samples.

Results

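The comparison described here asks whether an ethanol gavage changed liver transcripts by a different amount in mice labelled LbNOX than in mice labelled luciferase. LbNOX is the water-forming NADH oxidase of Lactobacillus brevis, an enzyme that turns NADH back into NAD+, and luciferase is the control construct. For each gene the ethanol effect in LbNOX livers (ethanol minus water) was set against the ethanol effect in luciferase livers (ethanol minus water), and the second was subtracted from the first. All 15 of the 15 liver samples enter, and 13570 of the 16330 genes listed were tested, namely those with a normalized count of 10 or more in at least 3 libraries. The third highest value of a gene was 10.01 just inside this limit and 9.997 just outside it.

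Alcohol dehydrogenase and aldehyde dehydrogenase oxidise ethanol to acetate in hepatocytes, and both steps make NADH. A high ratio of NADH to NAD+ slows steps of glycolysis and lactate use that need NAD+, and glycerol 3-phosphate and other sugar phosphates can build up. ChREBP, encoded by Mlxipl, is a transcription factor that responds to sugar phosphates and drives genes of glycolysis, fructose use, fatty acid synthesis and glucose 6-phosphate release in the liver. An enzyme such as LbNOX lowers the NADH to NAD+ ratio without making ATP, and it is used to ask which responses depend on that ratio.

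The groups were LbNOX mice given ethanol (3 libraries, M13 to M15), LbNOX mice given water (4 libraries, M6 to M9), luciferase mice given ethanol (3 libraries, M10 to M12) and luciferase mice given water (5 libraries, M1 to M5). Livers of all groups were taken 6 h after the gavage, and polyadenylated RNA was sequenced from whole tissue. The labels place both constructs under genotype, while the series' design text speaks of wild type or ChREBP mice, so whether any animal carried a ChREBP allele is not settled by the sources used here. Strain, age, sex, ethanol dose and the way the constructs were delivered are not given in the sources used here. Whether the libraries within a group stand for separate animals is not stated, and the p-values below measure only the spread between these libraries, which may be technical.

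Depth recovered from the table was 10600000 to 15700000 reads per library in LbNOX livers after ethanol, 13700000 to 20600000 in LbNOX livers after water, 12200000 to 14400000 in luciferase livers after ethanol and 14500000 to 23700000 in luciferase livers after water. M3, a luciferase water library, had the lowest median correlation with the other libraries of its own group (0.9276). M8, an LbNOX water library, followed (0.9377), close to M4 (0.9391) and M15 (0.9392). The summed normalized count of 7 pancreas and fat markers was 5580 in M8 and 760 in M3, against medians of 62.9 after ethanol and 47.7 after water in LbNOX livers, and of 128 after ethanol and 90.9 after water in luciferase livers. Summed hepatocyte markers ran from 588000 to 739000 in LbNOX livers after ethanol, 499000 to 950000 in LbNOX livers after water, 710000 to 866000 in luciferase livers after ethanol and 656000 to 803000 in luciferase livers after water.

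The ethanol effect differed between the constructs for 227 of 13570 genes (1.67%) at an adjusted p below 0.05 in limma. It was lower in LbNOX livers for 169 genes (1.25%) and higher in LbNOX livers for 58 genes (0.427%). At an unadjusted p below 0.05 there were 1988 genes. Values below called "difference" are log2 values of normalized count plus 1, positive where the ethanol effect was higher in LbNOX livers.

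Among the 169 genes the median ethanol effect was -0.21 in LbNOX livers and 1.41 in luciferase livers, and the median difference was -1.55. Of these, 138 differed by over 2-fold and 60 by over 4-fold. Of the 169, 8 reached a count of 10 only in the ethanol luciferase libraries. They entered the test through the group where they are high and had to differ. The 8 leave out genes that also reached 10 in fewer than 3 other libraries, such as Cep170. Such genes passed the filter through that group as well, and their number was not counted. Among the 58 genes the median ethanol effect was 0.33 in LbNOX livers and -1.01 in luciferase livers, with a median difference of 1.47, and 46 differed by over 2-fold and 16 by over 4-fold. The selection of these genes by the difference fixes the direction of these medians, which are given as a description. The effects share libraries with the difference and are not independent of it.

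Taken on their own, the ethanol effect passed the same threshold for 1 gene in LbNOX livers (1571 at an unadjusted p below 0.05) and 1052 genes in luciferase livers. The 1 gene in LbNOX livers was Tarsl2, a paralogue of threonyl-tRNA synthetase. Its counts were 209, 199 and 189 in LbNOX livers after ethanol, 448, 442, 360 and 519 in LbNOX livers after water, 357, 255 and 363 in luciferase livers after ethanol, and 375, 392, 322, 398 and 376 in luciferase livers after water. The difference for Tarsl2 was -0.93 ± 0.21 (SE, adjusted p = 0.0394) with an ethanol effect of -1.14 in LbNOX livers and -0.21 in luciferase livers. The call for Tarsl2 was lost without any 1 of 12 libraries, with an adjusted p of up to 0.125.

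**Figure D1:**
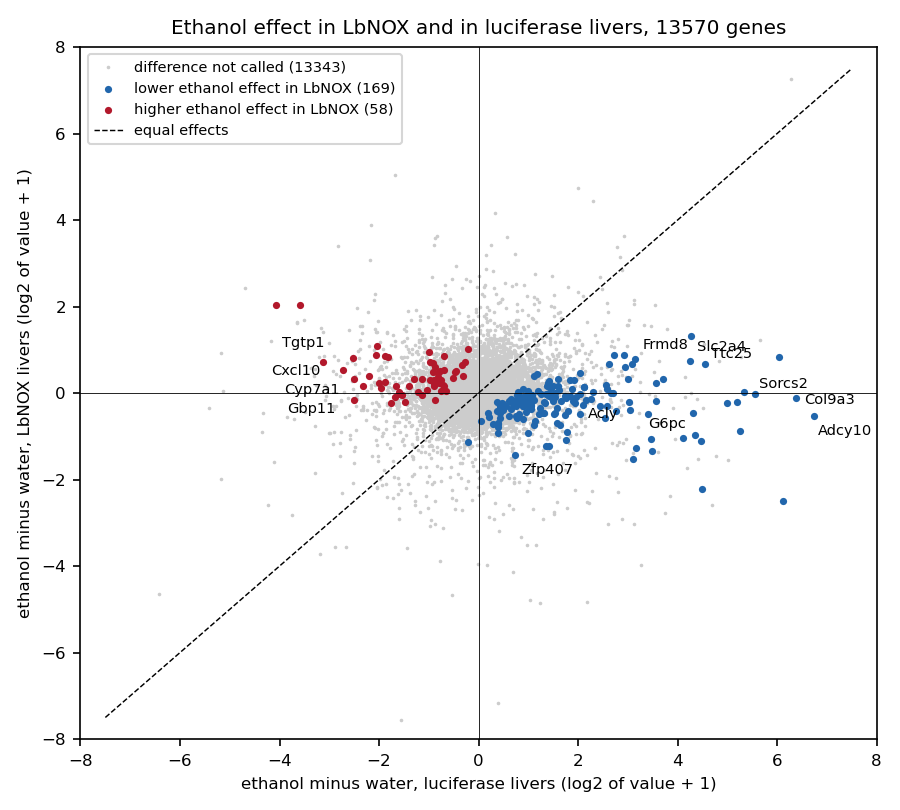
Ethanol effect of each tested gene in luciferase livers (x axis) and in LbNOX livers (y axis), both as log2 of normalized count plus 1, with the dashed line marking equal effects. Most of the 169 genes in blue lie right of 0 on the x axis and near 0 on the y axis, and most of the 58 genes in red lie left of 0 on the x axis and near 0 on the y axis.

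The constructs were also compared after each gavage. After ethanol, LbNOX and luciferase livers differed for 822 genes, 304 higher and 518 lower in LbNOX livers. After water they differed for 0 genes in limma, with 440 genes at an unadjusted p below 0.05. Among the 169 genes with a lower difference, the median gap between LbNOX and luciferase livers was -1.43 after ethanol and 0.10 after water. Among the 58 genes with a higher one it was 1.13 after ethanol and -0.27 after water. A count of 0 after water does not show that the constructs were equal there, since the interval of each gene's gap was not tested for equality.

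**Figure D2:**
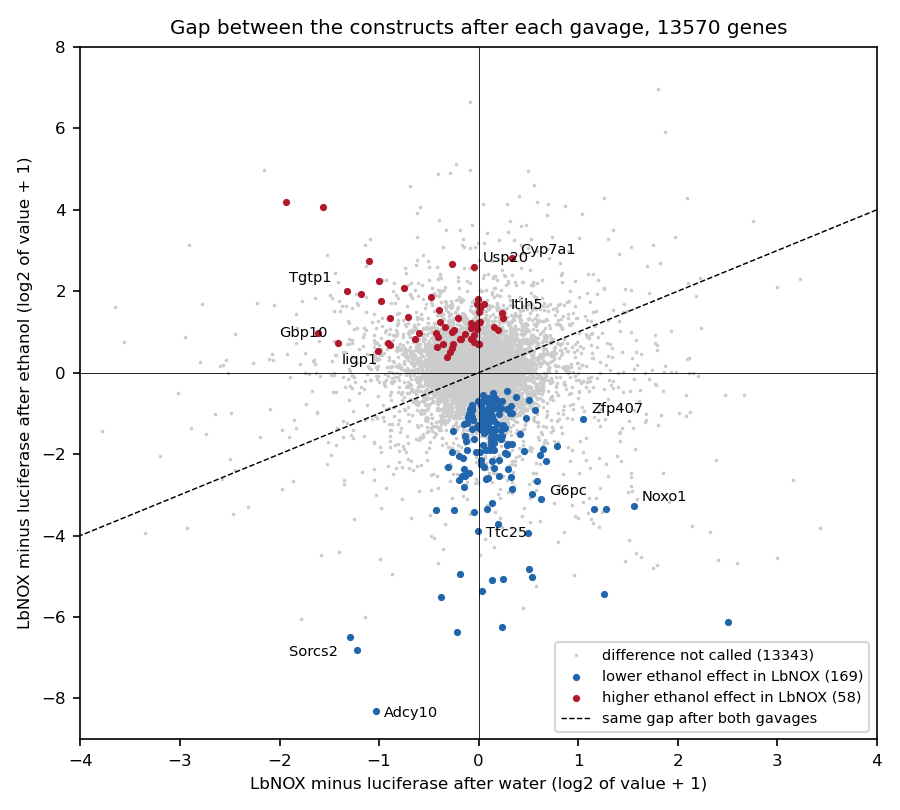
LbNOX minus luciferase after water (x axis) and after ethanol (y axis) for each tested gene, as log2 of normalized count plus 1, with the dashed line marking the same gap after both gavages (7 genes lie outside the axes). The 169 genes in blue lie below the dashed line, most of them near 0 on the x axis, and several of the 58 genes in red lie to the left of 0, among them Tgtp1, Gbp10 and Iigp1.

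ChREBP and its known targets were the list with the largest share of lower calls. In LbNOX livers 12 of its 20 members had a lower ethanol effect (60%, beside 1.67% called over all tested genes). All 20 had a difference below 0, from -4.02 to -0.91, with a median of -1.98 beside -0.01 over all tested genes. The median ethanol effect of the 20 was -0.18 in LbNOX livers and 1.72 in luciferase livers. The summed normalized count of the list was 91600 to 178000 in LbNOX livers after ethanol, 94400 to 176000 in LbNOX livers after water, 410000 to 552000 in luciferase livers after ethanol and 73500 to 172000 in luciferase livers after water. The ethanol luciferase libraries stood above all others and the other 3 groups overlapped.

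The count of 12 depended on the libraries. It was 2 without M15 or without M10, 3 without M6, M7 or M12, 4 without M2, 5 without M13, M9 or M1, 8 without M14 or M3, and 19 without M8, while the median stayed between -2.30 and -1.79. Leaving out M3 and M8 together gave 17 of 20, limma without a mean-variance trend gave 5, and DESeq2 on recovered reads gave 19.

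Mlxipl itself had 2760, 3530 and 1660 counts in LbNOX livers after ethanol, 2430, 2440, 1790 and 3410 in LbNOX livers after water, 6270, 5080 and 6400 in luciferase livers after ethanol, and 1720, 2070, 1480, 2350 and 3370 in luciferase livers after water. The ethanol luciferase libraries were the highest, but the difference of -1.43 ± 0.40 did not pass (adjusted p = 0.0937, 95% interval -2.29 to -0.57). It passed in DESeq2 (adjusted p = 0.0277) but not in limma without M3 and M8 (0.061).

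Acly, which encodes ATP citrate lyase and makes cytosolic acetyl-CoA, had 4080, 4830 and 2830 counts in LbNOX livers after ethanol and 4380, 3630, 3260 and 3990 in LbNOX livers after water. In luciferase livers it had 34100, 15700 and 22900 after ethanol and 3300, 3770, 3020, 3820 and 3880 after water. The 3 ethanol luciferase libraries lay above the other 12, which overlapped. The ethanol effect on Acly was 0.01 in LbNOX livers and 2.70 in luciferase livers, a difference of -2.69 ± 0.32 (adjusted p = 0.002), and it was called with each of the 15 libraries left out in turn.

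G6pc, the catalytic subunit of glucose 6-phosphatase, had 3860, 6440 and 2930 counts in LbNOX livers after ethanol and 6140, 6240, 2500 and 5120 in LbNOX livers after water. In luciferase livers it had 54900, 26500 and 32200 after ethanol and 3290, 4460, 1030, 3750 and 4600 after water. Its difference of -3.74 ± 0.67 was the largest of the list among called members (adjusted p = 0.013), and the call was lost without M15 or M10 (adjusted p up to 0.0552). M3 was the lowest library for G6pc and M8 the lowest of the LbNOX water group.

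Klf10, a zinc finger repressor that ChREBP induces, had 742, 742 and 429 counts in LbNOX livers after ethanol and 783, 730, 603 and 658 in LbNOX livers after water, against 3640, 2020 and 2990 after ethanol and 537, 694, 418, 852 and 729 after water in luciferase livers. The difference was -2.32 ± 0.36 (adjusted p = 0.0081) and was called without any 1 library. Fgf21, a hormone that the liver secretes after sugar and alcohol, had 37.4, 73.8 and 39.9 counts after ethanol in LbNOX livers and 254, 145 and 439 after ethanol in luciferase livers, with a difference of -2.23 ± 0.50 (adjusted p = 0.0382) that was lost without any 1 of 10 libraries (up to 0.111). Arrdc4, an arrestin domain protein related to Txnip, differed by -1.69 ± 0.38 (adjusted p = 0.042), also lost without any 1 of 10 libraries (up to 0.133). Txnip, an inhibitor of thioredoxin and of glucose uptake, differed by -1.23 ± 0.39, which did not pass (adjusted p = 0.144, 95% interval -2.07 to -0.39). The Txnip difference passed in limma without M3 and M8 (adjusted p = 0.0436) but not in DESeq2 (0.0575).

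Pklr, which encodes the liver pyruvate kinase and is a textbook ChREBP target, had 2670, 2990 and 2020 counts in LbNOX livers after ethanol and 3530, 2850, 1400 and 3410 in LbNOX livers after water. It had 16700, 8030 and 11300 counts after ethanol and 2570, 2860, 1140, 5210 and 3190 after water in luciferase livers. The ethanol luciferase libraries were the highest 3 of 15, but the difference of -2.16 ± 0.59 did not pass (adjusted p = 0.087, 95% interval -3.43 to -0.89). It passed in limma without M3 and M8 (adjusted p = 0.0141) and in DESeq2 (0.00691). The Pklr promoter is shown because its window holds a match to the carbohydrate response element, the motif that ChREBP binds. The window is chr3:89136373-89136672 on the plus strand of GRCm38.p6 (RefSeq), 250 bases before to 50 after the start site, with the match, which begins 170 bases upstream, in capitals.
Pklr: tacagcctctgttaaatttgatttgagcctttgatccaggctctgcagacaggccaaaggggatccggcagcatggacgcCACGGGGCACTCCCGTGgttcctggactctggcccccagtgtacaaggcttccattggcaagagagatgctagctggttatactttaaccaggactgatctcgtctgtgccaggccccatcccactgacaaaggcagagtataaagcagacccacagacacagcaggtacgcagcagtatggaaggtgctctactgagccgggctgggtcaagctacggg
The letters searched were CANGNGNNNNNCNCNTG on both strands. They occurred in 72 of the 9926 tested genes with a promoter window (0.725%), in 3 of 126 called genes with a lower ethanol effect in LbNOX livers (2.38%, Irak1bp1, Rhbdd1 and Rnh1), in 0 of 42 with a higher one, and in 1 of 15 members of the ChREBP list with a window. The shorter E-box CACGTG, which can lie within other motifs, occurred in 1126 windows (11.3%), in 20 of the 126 (15.9%) and in 3 of the 42 (7.14%). It occurred in 4 of the 15 members of the ChREBP list (26.7%), which share members with the 126. A match is a description of the letters and not evidence of binding.

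**Figure D3:**
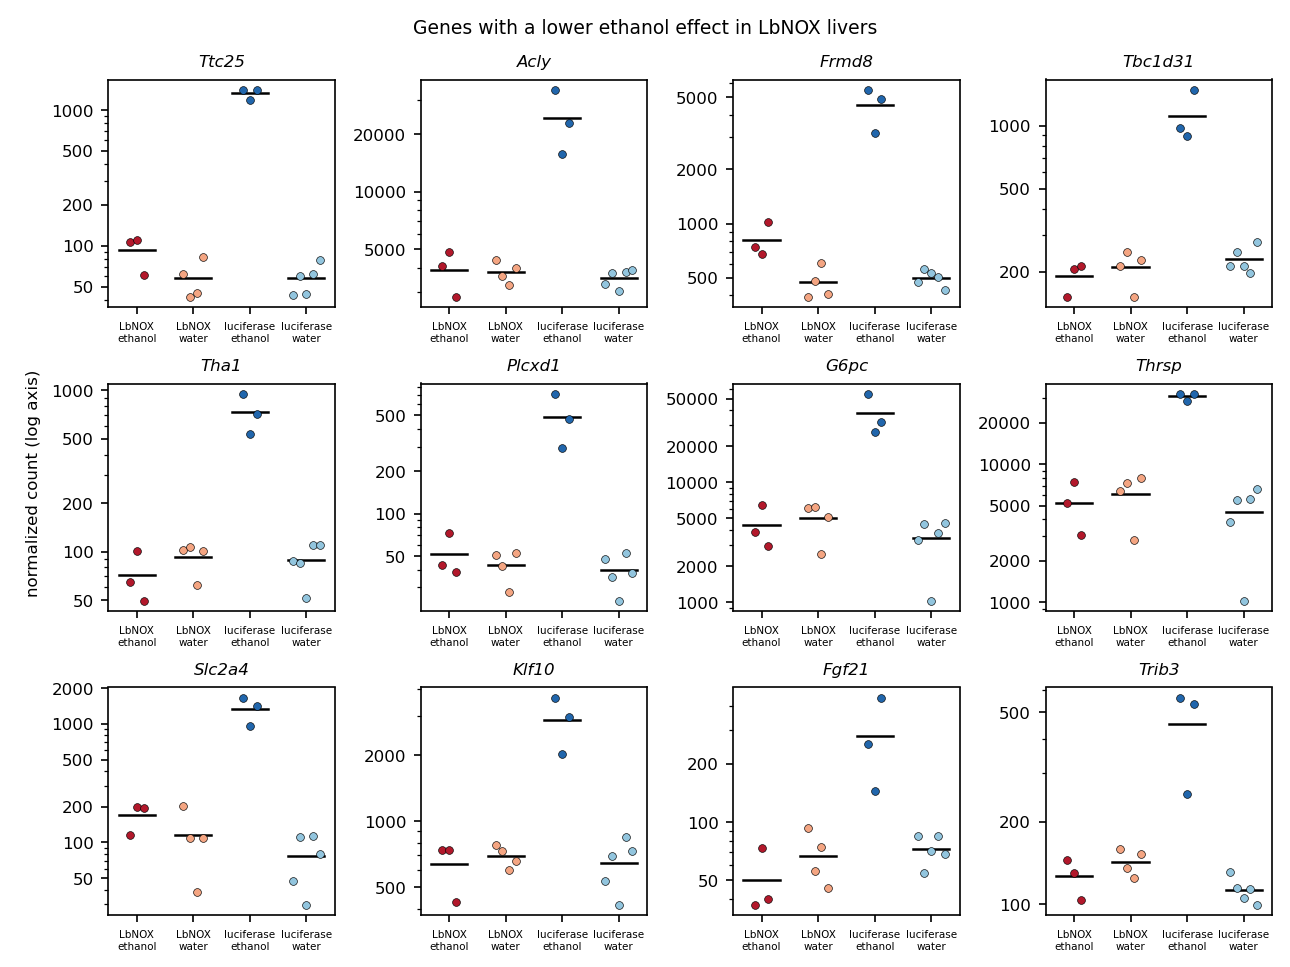
Normalized count of 12 genes with a lower ethanol effect in LbNOX livers, on log axes, 1 point per library and a bar at the group mean, for LbNOX ethanol, LbNOX water, luciferase ethanol and luciferase water from left to right. In each panel the 3 ethanol luciferase libraries lie above all others, as with Acly at 15700 to 34100 against 4830 or less elsewhere.

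Genes of fatty acid and triglyceride synthesis overlapped that list in part. In LbNOX livers 7 of its 24 members had a lower ethanol effect (29.2%, beside 1.67% called over all tested genes), with a median difference of -1.09, and 21 of 24 were below 0. The 7 were Acly, Elovl6, Thrsp, Pnpla3, Agpat2, Srebf1 and Mid1ip1. The count was 1 without M15 or M10, 2 without M13, M6, M7 or M12, 3 without M9 or M1, 4 without M14 or M2, and 9 without M8 or M4, and it was 4 without a mean-variance trend and 13 in DESeq2.

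Elovl6, the elongase of palmitate, had 2440, 2660 and 2260 counts in LbNOX livers after ethanol and 1460, 1690, 1500 and 1490 in LbNOX livers after water, against 16900, 7040 and 9720 after ethanol and 1520, 1860, 1020, 2360 and 2100 after water in luciferase livers. The ethanol effect was 0.68 in LbNOX livers and 2.62 in luciferase livers, a difference of -1.95 ± 0.38 (adjusted p = 0.023) that was lost without M13, M15, M6, M7, M10 or M12 (up to 0.0732). Thrsp, a lipogenic protein of liver and fat, had 5220, 7440 and 3090 counts after ethanol in LbNOX livers and 32400, 28700 and 32200 after ethanol in luciferase livers, with a difference of -3.24 ± 0.75 (adjusted p = 0.0476) that was lost without any 1 of 11 libraries (up to 0.132). Mid1ip1, a Thrsp paralogue that promotes polymerisation of acetyl-CoA carboxylase, differed by -2.27 ± 0.43 (adjusted p = 0.018), lost without M13, M15 or M10 (up to 0.0628).

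Fasn, the fatty acid synthase, had 1520, 2610 and 873 counts in LbNOX livers after ethanol and 1430, 1420, 844 and 2600 in LbNOX livers after water, against 9300, 5940 and 6200 after ethanol and 1440, 1460, 658, 1350 and 2660 after water in luciferase livers. Its difference of -2.29 ± 0.62 did not pass (adjusted p = 0.0847, 95% interval -3.62 to -0.95), although the 3 ethanol luciferase libraries were again the highest. The Fasn difference passed in limma without M3 and M8 (adjusted p = 0.0405) and in DESeq2 (0.0136). Acaca, the cytosolic acetyl-CoA carboxylase, differed by -1.21 ± 0.40 (adjusted p = 0.162), and Slc25a1, the mitochondrial citrate carrier, by -0.79 ± 0.27 (adjusted p = 0.173). In DESeq2 Acaca passed (adjusted p = 0.0382) and Slc25a1 did not (0.0727).

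Several of the genes with the smallest p-values stand outside these lists. Ttc25, a component of the docking complex of ciliary dynein arms, had 107, 111 and 60.5 counts in LbNOX livers after ethanol, 61.6, 42.2, 44.7 and 83.2 in LbNOX livers after water, 1410, 1190 and 1400 in luciferase livers after ethanol, and 43.2, 60.0, 44.0, 62.2 and 78.0 in luciferase livers after water. Its difference of -3.87 ± 0.39 had the smallest adjusted p of all genes (0.00103) and was called with each library left out. Ttc25 lies on chromosome 11 at 100545607 to 100572568, 17607 bases from Acly at 100476353 to 100528000 (GENCODE annotation of GRCm38), so 2 of the 5 genes with the smallest p-values are neighbours. How often tested genes lie this close to each other was not counted, so the nearness is a description.

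Fgfrl1, a receptor that binds fibroblast growth factors without a kinase domain, had 735, 749 and 614 counts after ethanol in LbNOX livers and 2640, 1820 and 2530 after ethanol in luciferase livers, with a difference of -1.88 ± 0.22 (adjusted p = 0.002). Frmd8, which stabilises the sheddase complex of iRhom and ADAM17, had 739, 681 and 1020 counts after ethanol in LbNOX livers and 5510, 3160 and 4890 after ethanol in luciferase livers, with a difference of -2.35 ± 0.28 (adjusted p = 0.002). Tbc1d31, a centrosomal protein, differed by -2.39 ± 0.29 (adjusted p = 0.002). These 3 calls held with each library left out.

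Tha1, which encodes threonine aldolase and splits threonine into glycine and acetaldehyde, had 65.0, 101 and 49.6 counts in LbNOX livers after ethanol and 102, 107, 62.4 and 101 in LbNOX livers after water, against 953, 538 and 717 after ethanol and 87.5, 85.4, 51.5, 110 and 110 after water in luciferase livers. The difference was -3.44 ± 0.43 (adjusted p = 0.002) and held without any 1 library. It was the 1 called gene of 18 in serine, glycine and threonine metabolism (5.56%, beside 1.67% over all tested genes), whose median difference was -0.42.

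Some genes were low outside the ethanol luciferase libraries. Adcy10, the bicarbonate-responsive soluble adenylyl cyclase, had 2.77, 0 and 0 counts in LbNOX livers after ethanol and 0, 6.25, 0 and 2.52 in LbNOX livers after water, against 710, 289 and 580 after ethanol and 8.39, 2.73, 0.831, 7.04 and 3.00 after water in luciferase livers. Adcy10 is among the 8 genes that entered the test through the ethanol luciferase libraries alone, so its fitted difference of -7.27, on the scale with 1 added, is a description. Sorcs2, a sorting receptor of the Vps10 family, had 1.38, 8.85 and 2.42 counts after ethanol in LbNOX livers and 418, 308 and 875 after ethanol in luciferase livers, with a difference of -5.59 ± 0.77 (adjusted p = 0.00395). The Sorcs2 call held without any 1 library. Sorcs2 is not among the 8, since M4, a luciferase water library, had 16.4 counts. Its counts were low outside the ethanol luciferase libraries, so its fitted difference depends on the 1 added and is a description. Plcxd1, a phospholipase C domain protein, had 42.9, 72.8 and 38.7 counts after ethanol in LbNOX livers and 713, 292 and 469 after ethanol in luciferase livers (difference -3.33 ± 0.49, adjusted p = 0.0069). The most negative fitted value of all, that of Cep170 (-8.62 ± 1.64, adjusted p = 0.0188), belonged to a low gene singled out after its values were seen. Its counts were 0 in all 3 LbNOX libraries after ethanol and 0, 0, 28.5 and 34.0 in LbNOX livers after water, against 55.7, 28.0 and 204 after ethanol and 0 in all 5 libraries after water in luciferase livers, so this value depends on the 1 added and is no measure of a fold.

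Slc2a4, the insulin-responsive glucose transporter of muscle and fat, had 116, 199 and 196 counts in LbNOX livers after ethanol and 203, 110, 38.5 and 110 in LbNOX livers after water, against 1660, 962 and 1420 after ethanol and 47.4, 111, 29.9, 114 and 80.0 after water in luciferase livers. The difference was -3.52 ± 0.71 (adjusted p = 0.0257), lost without M13, M15, M6, M7, M9, M10 or M12 (up to 0.0947). Slc2a2, the main glucose transporter of hepatocytes, differed by -1.04 ± 0.24 (adjusted p = 0.0476), lost without any 1 of 13 libraries (up to 0.146). These were the 2 called genes of 14 in the insulin signalling list (14.3%, beside 1.67% over all tested genes), where Akt2 differed by -0.62 (adjusted p = 0.201).

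In glycolysis and fructose entry 2 of 18 genes had a lower ethanol effect in LbNOX livers (11.1%, beside 1.67% called over all tested genes). The count was 6 in DESeq2, 5 with array weights, 5 without M3 and M8 and 1 without a mean-variance trend. Gpi1, glucose 6-phosphate isomerase, had 4500, 5230 and 3620 counts after ethanol in LbNOX livers and 13100, 9470 and 12000 after ethanol in luciferase livers (difference -1.41 ± 0.26, adjusted p = 0.0158, up to 0.061 without M15, M10 or M12). Dak, the triokinase that phosphorylates glyceraldehyde from fructose, differed by -2.0 ± 0.43 (adjusted p = 0.0339, lost without any 1 of 8 libraries, up to 0.0999). Khk, ketohexokinase, differed by -1.96 ± 0.50 (adjusted p = 0.0661), which did not pass. The Khk difference passed in limma without M3 and M8 (adjusted p = 0.017) and in DESeq2 (0.0086). In gluconeogenesis and glycogen metabolism 1 of 16 genes (6.25%), G6pc, was called, and the median difference was -0.77. The count was 4 with array weights and 3 in DESeq2 or without M3 and M8. In the pentose phosphate list 1 of 10 was called (10%), Rpia, the ribose 5-phosphate isomerase, which had 144, 194 and 103 counts after ethanol in LbNOX livers and 951, 505 and 742 after ethanol in luciferase livers (difference -2.0 ± 0.33, adjusted p = 0.0081, kept without any 1 library).

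No gene of the NADH shuttles was called in the main fit. The list held 0 called of 15 in limma (4 at an unadjusted p below 0.05), 0 in edgeR and 2 lower in DESeq2, with a median difference of -0.49. Other limma settings called 4 lower with array weights, 2 lower without M3 and M8 and 1 lower under quantile normalization. Gpd1, the cytosolic glycerol 3-phosphate dehydrogenase that uses NADH, had 7790, 8270 and 5650 counts in LbNOX livers after ethanol and 7380, 7660, 6140 and 6380 in LbNOX livers after water, against 22400, 16300 and 17000 after ethanol and 6640, 5900, 4420, 11500 and 6220 after water in luciferase livers. The ethanol luciferase libraries were the highest, and the difference of -1.42 ± 0.35 lay just outside the threshold (adjusted p = 0.056, 95% interval -2.17 to -0.68). Gpd2, its mitochondrial partner, differed by -0.95 ± 0.25 (adjusted p = 0.068), and Got1, the cytosolic aspartate aminotransferase, by -0.56 ± 0.38 (adjusted p = 0.523, 95% interval -1.38 to 0.26). In DESeq2 Gpd1 (adjusted p = 0.00821) and Gpd2 (0.00833) passed, and Gpd1 also passed in limma without M3 and M8 (0.0478).

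The enzymes that oxidise ethanol and its products had 0 called genes of 13 in limma, edgeR and DESeq2 (1 at an unadjusted p below 0.05 in limma), with a median difference of -0.17 that turned to 0.16 under quantile normalization. Adh1, the main hepatic alcohol dehydrogenase, had 23500, 26100 and 20900 counts in LbNOX livers after ethanol and 28400, 26400, 19300 and 33800 in LbNOX livers after water, against 26900, 24400 and 21500 after ethanol and 23100, 28000, 19700, 31500 and 35400 after water in luciferase livers. The groups overlapped, and the difference of -0.02 had a 95% interval of -0.66 to 0.62 and turned positive, to 0.20, under quantile normalization. Aldh2, the mitochondrial acetaldehyde dehydrogenase, differed by -0.45 (95% interval -0.99 to 0.10), Acss2, the cytosolic acetyl-CoA synthetase, by -0.62 (-1.17 to -0.08, adjusted p = 0.26), and Cyp2e1, the ethanol-oxidising P450, by -0.56 (-1.91 to 0.80). Ldha, lactate dehydrogenase A, differed by -0.07 (-0.56 to 0.43), and by 0.21 under quantile normalization. In NAD synthesis and the sirtuins 0 of 18 were called by the same 3 tools (4 at an unadjusted p below 0.05 in limma), and Nampt, the salvage enzyme of NAD synthesis, differed by 0.18 (-0.19 to 0.56).

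Interferon-inducible GTPases were the list with the largest share of higher calls. These proteins, the guanylate-binding proteins and the immunity-related GTPases, are made after interferon and act on the vacuoles of intracellular pathogens. The ethanol effect was higher in LbNOX livers for 8 of 17 tested members (47.1%, beside 1.67% called over all tested genes), Gbp10, Gbp11, Irgm1, Irgm2, Iigp1, Tgtp1, Tgtp2 and Ifi47. All 17 had a difference above 0, with a median of 2.07 beside -0.01 over all tested genes. Gbp8 had 0 counts in all 3 ethanol luciferase libraries, so its own value depends on the 1 added. The median ethanol effect of the list was 0.18 in LbNOX livers and -1.89 in luciferase livers.

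The list's summed normalized count was 25300 to 33600 in LbNOX livers after ethanol, 18300 to 38500 in LbNOX livers after water, 11000 to 22300 in luciferase livers after ethanol and 43500 to 68200 in luciferase livers after water. The water luciferase libraries stood above all others, and the gap between LbNOX and luciferase livers after water had a median of -1.19 over the list, with 0 genes passing on their own. The call count was 3 without M15 or M10, 4 without M6, 5 without M14 or M7, 11 without M8, and 11 with M3 and M8 both left out. In whole liver, fewer cells of a type and less RNA per cell cannot be told apart. Summed T and NK cell markers were 138 to 289 in LbNOX livers after ethanol, 223 to 303 in LbNOX livers after water, 109 to 140 in luciferase livers after ethanol and 124 to 475 in luciferase livers after water. Kupffer cell markers were 1860 to 3110 in LbNOX livers after ethanol, 1930 to 3800 in LbNOX livers after water, 1600 to 2060 in luciferase livers after ethanol and 1800 to 4520 in luciferase livers after water. None of 10 T and NK markers or 9 Kupffer markers tested was called in limma (2 and 0 at an unadjusted p below 0.05), no marker of either list was at 0 in a whole group, and their part in the result was not tested.

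Iigp1, an immunity-related GTPase abundant in liver, had 10700, 12700 and 13900 counts in LbNOX livers after ethanol and 11100, 12600, 15500 and 9940 in LbNOX livers after water. It had 5550, 8410 and 8880 counts after ethanol and 22700, 25200, 27200, 19200 and 20400 after water in luciferase livers. The luciferase groups lay on either side of both LbNOX groups without overlap. The ethanol effect was 0.03 in LbNOX livers and -1.61 in luciferase livers, a difference of 1.64 ± 0.27 (adjusted p = 0.00847) that held without any 1 library.

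Gbp10 had 553, 704 and 649 counts in LbNOX livers after ethanol and 550, 577, 648 and 384 in LbNOX livers after water, against 226, 417 and 588 after ethanol and 1400, 1620, 1640, 1570 and 973 after water in luciferase livers. Its difference of 2.14 ± 0.38 (adjusted p = 0.0128) also held without any 1 library, and the gap after water was -1.41, the ethanol luciferase libraries overlapping both LbNOX groups. Gbp11 had 87.2, 149 and 87.1 counts in LbNOX livers after ethanol and 15.7, 37.3 and 37.4 after ethanol in luciferase livers (difference 2.34 ± 0.45, adjusted p = 0.0193, up to 0.0511 without M6 or M10). Irgm2 had 1520, 2510 and 2160 counts in LbNOX livers after ethanol and 496, 823 and 1190 after ethanol in luciferase livers (difference 2.07 ± 0.41, adjusted p = 0.0241, up to 0.0752 without M14, M15, M6, M7 or M10).

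Tgtp1 had 4660, 3660 and 7030 counts in LbNOX livers after ethanol and 2460, 3120, 6480 and 1240 in LbNOX livers after water, against 531, 1380 and 2450 after ethanol and 8290, 9690, 10900, 3830 and 5040 after water in luciferase livers. Its difference of 3.34 ± 0.78 was the largest of the list among called members (adjusted p = 0.0481), but it was lost without any 1 of 12 libraries (up to 0.133), and in edgeR it had an adjusted p of 0.073. Its near-identical copy Tgtp2 differed by 3.12 ± 0.56 (adjusted p = 0.013, up to 0.0552 without M15 or M10). Reads from these copies can be divided between them in the counting, so the split between them is uncertain. Irgm1, Tgtp1, Tgtp2 and Ifi47 lie within one stretch of chromosome 11 between 48861968 and 49096974. Further genes called higher in LbNOX livers lie in the same stretch, among them a gene that overlaps Tgtp1. Whether reads were divided between these overlapping genes was not tested.

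Annotated pseudogenes near these loci also passed. Gm12250, a processed pseudogene 10606 bases from Irgm2, had 271, 326 and 337 counts in LbNOX livers after ethanol and 216, 225, 438 and 146 in LbNOX livers after water, against 93.2, 135 and 302 after ethanol and 907, 757, 870, 766 and 439 after water in luciferase livers. Every water luciferase library was above every other library, the gap between LbNOX and luciferase livers after water was -1.61, and the difference was 2.60 ± 0.54 (adjusted p = 0.0281, lost without any 1 of 9 libraries, up to 0.0947). BC023105, a processed pseudogene 49131 bases from Iigp1, had 638, 785 and 1000 counts in LbNOX livers after ethanol and 448, 506, 1130 and 359 in LbNOX livers after water, against 115, 139 and 283 after ethanol and 1340, 1600, 1620, 379 and 1240 after water in luciferase livers. Here the ethanol luciferase libraries were the lowest 3, with a difference of 3.26 ± 0.68 (adjusted p = 0.0302, lost without any 1 of 11 libraries, up to 0.0975). Reads of such copies may be shared with related genes, so their values are uncertain.

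Promoters of interferon-responsive genes often hold the interferon-stimulated response element, bound by STAT and IRF factors. The windows of Irgm2 and Cxcl10, the GTPase and the chemokine described here, are shown because each holds 1 match, given in capitals. The Irgm2 window is chr11:58214727-58215026 on the plus strand, with the match 64 bases upstream of the start site, and the Cxcl10 window is chr5:92348840-92349139 on the minus strand, with the match 213 bases upstream (RefSeq, GRCm38.p6). This RefSeq start site of Irgm2 lies inside the GENCODE span of the gene (58199618 to 58222782). The distance to Gm12250 given above was taken from that span.
Irgm2: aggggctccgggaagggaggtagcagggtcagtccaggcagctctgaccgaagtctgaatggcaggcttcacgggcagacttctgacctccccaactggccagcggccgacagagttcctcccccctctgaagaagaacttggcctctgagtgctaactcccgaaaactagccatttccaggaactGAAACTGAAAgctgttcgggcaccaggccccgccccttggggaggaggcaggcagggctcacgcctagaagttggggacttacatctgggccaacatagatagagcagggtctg
Cxcl10: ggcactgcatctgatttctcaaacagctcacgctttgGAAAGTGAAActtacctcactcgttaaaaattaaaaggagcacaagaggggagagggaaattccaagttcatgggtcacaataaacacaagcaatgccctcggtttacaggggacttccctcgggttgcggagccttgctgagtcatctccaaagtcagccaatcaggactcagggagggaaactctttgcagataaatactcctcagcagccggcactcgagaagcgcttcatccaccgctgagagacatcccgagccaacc
The letters GAAANNGAAA, searched on both strands, occurred in 381 of 9926 windows of tested genes (3.84%). They occurred in 12 of 42 called genes with a higher ethanol effect in LbNOX livers (28.6%), in 2 of 126 with a lower one (1.59%), and in 9 of the 10 GTPases with a window. The motif TTCNNNGAA, the letters of the gamma-activated site, occurred in 843 windows (8.49%), in 9 of the 42 (21.4%) and in 11 of the 126 (8.73%). It occurred in 6 of the 10 GTPases with a window (60%). The 42 and the 10 genes share members, and no match was tested for binding.

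Chemokine and interferon-gamma genes had 3 higher calls among 23 (13%, beside 1.67% called over all tested genes), Cxcl10, Cd274 and Irf1, and a median difference of 0.77. Cxcl10, which attracts activated T cells, had 378, 602 and 613 counts in LbNOX livers after ethanol and 379, 358, 806 and 266 in LbNOX livers after water, against 84.7, 92.1 and 233 after ethanol and 817, 604, 1230, 442 and 598 after water in luciferase livers. The ethanol luciferase libraries were the lowest 3. Its difference of 2.82 ± 0.58 passed (adjusted p = 0.0281) and was lost without any 1 of 8 libraries (up to 0.0953). Cd274, the checkpoint ligand PD-L1, had 101, 149 and 126 counts in LbNOX livers after ethanol and 37.5, 50.1 and 59.8 after ethanol in luciferase livers (difference 2.23 ± 0.46, adjusted p = 0.0281, lost without M14, M15, M6, M7, M10 or M12). Irf1, an interferon-induced transcription factor, differed by 1.29 ± 0.26 (adjusted p = 0.0257, lost without any 1 of 7 libraries, up to 0.0947).

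The type I interferon list had 1 higher call among 24 (4.17%, beside 1.67% called over all tested genes) although 23 were above 0, with a median difference of 1.22. The count was 6 in DESeq2, 3 with array weights and 0 both without a mean-variance trend and without M3 and M8. The called gene was Stat2, which carries the type I interferon signal to the nucleus. It had 982, 1210 and 966 counts in LbNOX livers after ethanol and 540, 798 and 708 after ethanol in luciferase livers (difference 1.06 ± 0.24, adjusted p = 0.0405, lost without any 1 of 11 libraries, up to 0.125). Rsad2 had 875, 910 and 1180 counts in LbNOX livers after ethanol and 659, 545, 805 and 559 in LbNOX livers after water, against 167, 331 and 489 after ethanol and 1170, 669, 1260, 4120 and 538 after water in luciferase livers. The water luciferase library M4 was far above its group, and the difference of 2.58 ± 0.74 did not pass (adjusted p = 0.104). In DESeq2 that difference passed (adjusted p = 0.00565), but not in limma without M3 and M8 (0.133). Rtp4 had 0 counts in all LbNOX water and all ethanol luciferase libraries, so its value carries no fold.

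**Figure D4:**
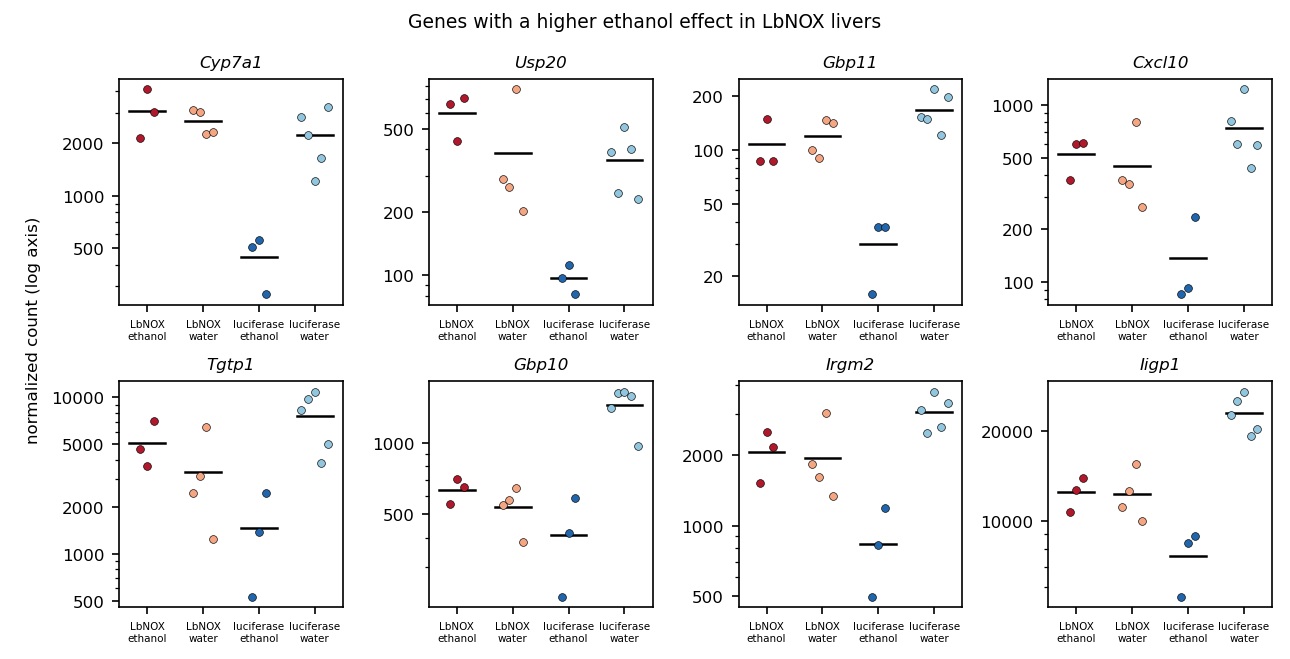
Normalized count of 8 genes with a higher ethanol effect in LbNOX livers, on log axes, 1 point per library and a bar at the group mean, for LbNOX ethanol, LbNOX water, luciferase ethanol and luciferase water from left to right. Cyp7a1 is low in the ethanol luciferase libraries alone (269 to 552 against 1210 or more elsewhere), while for Iigp1 the water luciferase libraries (19200 to 27200) also lie above every LbNOX library.

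Cyp7a1, which hydroxylates cholesterol in the limiting step of bile acid synthesis, had 2140, 4110 and 3030 counts in LbNOX livers after ethanol and 3110, 3020, 2270 and 2330 in LbNOX livers after water. It had 505, 552 and 269 counts after ethanol and 2840, 2250, 1210, 1650 and 3250 after water in luciferase livers. The ethanol luciferase libraries were the lowest 3, and the other groups overlapped. The ethanol effect was 0.17 in LbNOX livers and -2.32 in luciferase livers, a difference of 2.49 ± 0.46 (adjusted p = 0.0159) that was lost without M15 (0.0519). It was the 1 called gene of 16 in bile acid synthesis and transport (6.25%, beside 1.67% over all tested genes), whose median difference was -0.24. Cyp8b1, the sterol 12-alpha-hydroxylase downstream, differed by -1.67 ± 0.72 (adjusted p = 0.29). The Cyp8b1 difference passed in limma without M3 and M8 (adjusted p = 0.0405) but not in DESeq2 (0.16). Slc10a1, the bile acid uptake carrier, had a fitted difference of -4.14 ± 2.38 that did not pass (adjusted p = 0.447) and that includes a count of 0 in M13 beside 1210 and 406 in the other ethanol LbNOX libraries.

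Usp20, a deubiquitinase, had 659, 441 and 703 counts in LbNOX livers after ethanol and 288, 265, 776 and 202 in LbNOX livers after water, against 96.8, 112 and 81.0 after ethanol and 388, 248, 513, 402 and 231 after water in luciferase livers (difference 2.65 ± 0.53, adjusted p = 0.0253, lost without M13, M15, M6, M7, M10 or M12). Tgm1, a transglutaminase, differed by 1.95 ± 0.46 (adjusted p = 0.0476, lost without any 1 of 11 libraries and in edgeR, at 0.0661). Itih5, an inter-alpha-trypsin inhibitor heavy chain, was different in shape. It had 793, 610 and 891 counts in LbNOX livers after ethanol and 413, 348, 457 and 296 in LbNOX livers after water, against 323, 261 and 241 after ethanol and 316, 337, 420, 273 and 263 after water in luciferase livers. The ethanol LbNOX libraries were the highest 3 of 15, with an ethanol effect of 1.02 in LbNOX livers and -0.22 in luciferase livers and a difference of 1.23 ± 0.27 (adjusted p = 0.0366, lost without any 1 of 10 libraries, up to 0.113).

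Zfp407, a zinc finger protein, had 88.6, 189 and 155 counts in LbNOX livers after ethanol and 412, 374, 404 and 319 in LbNOX livers after water, against 305, 237 and 384 after ethanol and 231, 152, 239, 151 and 153 after water in luciferase livers. Its ethanol effect was -1.44 in LbNOX livers and 0.74 in luciferase livers, neither past the threshold on its own (adjusted p = 0.0716 in LbNOX livers and 0.0851 in luciferase livers). The difference of -2.18 ± 0.36 passed (adjusted p = 0.0081) and held without any 1 library. The gap between LbNOX and luciferase livers after water was 1.05, so the groups already stood apart there in value, without passing. The uncharacterised gene 1700001C19Rik had 66.4, 94.4 and 32.6 counts in LbNOX livers after ethanol and 150, 123, 126 and 157 in LbNOX livers after water, with a difference of -2.63 ± 0.50 (adjusted p = 0.019, lost without M15, M10 or M12).

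The stress and signalling lists are read beside the 1.67% called over all tested genes. In the integrated stress response 2 of 20 were called lower (10%; in DESeq2 5 lower and 1 higher, with array weights 5 lower, without a mean-variance trend 1), Fgf21 and Trib3, a pseudokinase that ATF4 and CHOP induce. Trib3 had 145, 130 and 104 counts in LbNOX livers after ethanol and 159, 136, 125 and 152 in LbNOX livers after water, against 564, 253 and 537 after ethanol and 131, 115, 106, 114 and 99.9 after water in luciferase livers (difference -2.09 ± 0.33, adjusted p = 0.0081, kept without any 1 library). Atf3 had a fitted difference of 7.12 ± 1.78 that did not pass (adjusted p = 0.0632) and rests on counts of 0 in M6, M10 and M11. Of the clock list 1 of 18 was called (5.56%; 2 in edgeR, DESeq2, with array weights or without M3 and M8), Hlf, a circadian bZIP factor (difference -1.58 ± 0.28, adjusted p = 0.0123, 0.0515 without M10), of cholesterol synthesis and uptake 1 of 24 (4.17%), the sterol carrier Stard4 (-1.32 ± 0.30, adjusted p = 0.0449), and of proliferation 1 of 20 (5%), the ribonucleotide reductase subunit Rrm2 (-1.32 ± 0.29, adjusted p = 0.0339). Stard4 was lost without any 1 of 12 libraries and Rrm2 without any 1 of 8, and both were lost without a mean-variance trend.

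Nothing was called in the main limma fit in the lists of the unfolded protein response (17 genes, median difference 0.34), heat shock chaperones (14 genes, 0.56), NRF2 and glutathione (20 genes, 0.54), p53 targets (14 genes, 0.57), immediate early genes (15 genes, 0.51), glucocorticoid response (16 genes, -0.57), tyrosine and tryptophan catabolism (12 genes, -0.82), urea cycle (8 genes, -0.29), fatty acid oxidation and ketogenesis (28 genes, -0.13, turning to 0.08 under quantile normalization), acute phase (18 genes, 0.08, turning to -0.02 with array weights, in edgeR and in DESeq2) and xenobiotic cytochromes P450 (16 genes, -0.33). At an unadjusted p below 0.05 limma counted 7 of the unfolded protein response, 5 of the chaperones, 2 of NRF2 and glutathione, 7 of the p53 targets, 6 immediate early genes, 3 of the glucocorticoid response, 3 of tyrosine and tryptophan catabolism, 2 of the urea cycle, 6 of fatty acid oxidation, 3 of the acute phase and 2 P450 genes. With array weights limma called 2 higher in the unfolded protein response, 3 higher chaperones, 1 higher of NRF2 and glutathione and 2 higher p53 targets. It also called 4 higher immediate early genes, 2 lower of the glucocorticoid response, 1 lower of tyrosine and tryptophan catabolism and 1 higher of fatty acid oxidation. In edgeR 1 gene of the unfolded protein response was called higher in LbNOX livers and none of the other lists. In DESeq2 the calls were 4 higher in the unfolded protein response, 3 higher chaperones, 1 higher p53 target, 4 higher immediate early genes, 2 lower genes of the glucocorticoid response, 2 higher of fatty acid oxidation and 1 higher of the acute phase. Limma without M3 and M8 called 1 higher in the unfolded protein response, 3 higher chaperones and 1 higher of NRF2 and glutathione. It also called 1 higher p53 target, 2 higher immediate early genes and 2 lower of the glucocorticoid response. Jun, an immediate early factor, came near with 1.27 ± 0.31 (adjusted p = 0.0548), as did Manf, an endoplasmic reticulum stress factor, with 0.90 ± 0.22 (adjusted p = 0.0518), and Saa3, an acute phase amyloid, with 2.40 ± 0.57 (adjusted p = 0.0503). In limma without M3 and M8, Jun (adjusted p = 0.0361), Manf (0.0437) and Saa3 (0.0147) passed. They also passed in DESeq2 (0.00769, 0.00342 and 0.00511). Oxidative phosphorylation had 0 called of 24 in limma, edgeR and DESeq2 (0 at an unadjusted p below 0.05 in limma), with all 24 below 0 and a median of -0.25. Ribosomal protein genes had a median of -0.26 over 25 and the mitochondrial genome -0.24 over 10, which turned to 0.05 under quantile normalization.

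**Figure D5:**
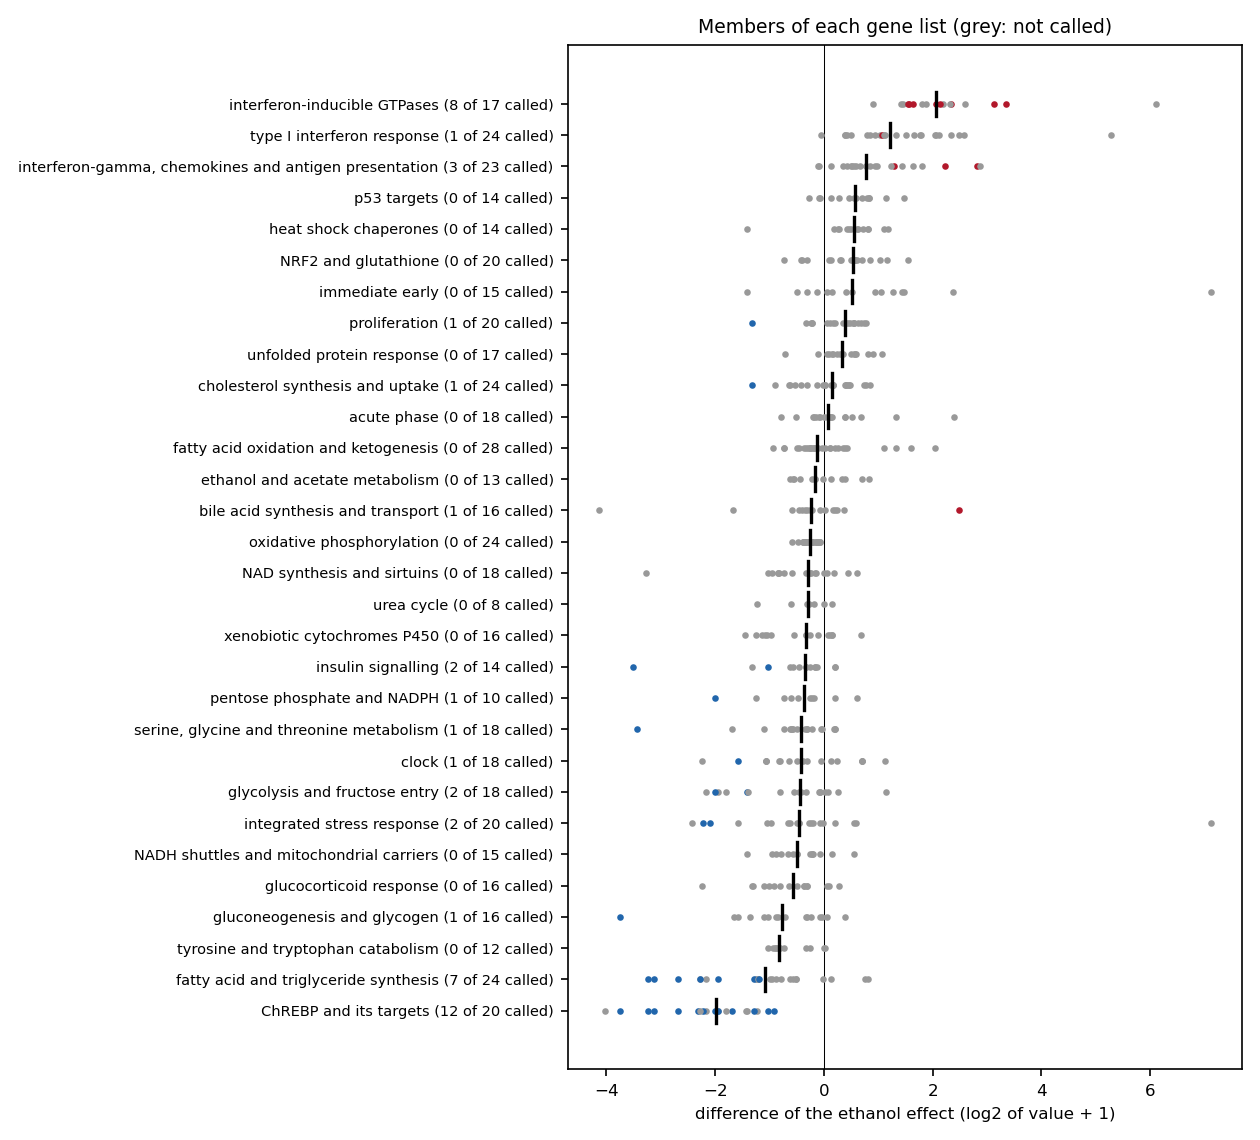
Difference of the ethanol effect between constructs (log2 of normalized count plus 1) for each tested member of 30 gene lists, ordered by the list median, which is the black tick. Blue points are called lower in LbNOX livers, red points called higher and grey points not called. The ChREBP list lies lowest (median -1.98) and the interferon-inducible GTPases highest (2.07).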

How the data were processed

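The deposited table holds normalized counts per gene symbol for 15 liver libraries, a signal that the authors scaled between libraries. Salmon 1.5.1, DESeq2 1.30.1 and the mm10 build appear in the submitters' processing notes with no role given. Each column is headed by a group and a library, without a replicate number. Every one of the 244950 values was within 0.001 of a whole number of reads once divided by a library's step, which gave the depth of each library and allowed count tests as alternatives.

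Values were tested as log2 of normalized count plus 1 with limma 3.58.1 (R 4.3.3; trend and robust variances), fitted to all 4 groups together, for the 13570 genes with 10 or more in at least 3 libraries. The contrast was LbNOX (ethanol minus water) minus luciferase (ethanol minus water). P-values were adjusted by Benjamini-Hochberg over all tested genes and genes were called below 0.05. Alternatives included edgeR 4.0.16 and DESeq2 1.42.0 on recovered reads, other normalizations, pseudocounts and filters, and each library left out. Replicate libraries of a group were not duplicates (chi-square per degree of freedom 25.4 to 141 over 22 pairs).

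Named genes were the 12 most negative and 12 most positive called differences with a mean of 100 or more, the 5 smallest p-values, up to 3 members per list by p, the 5 called genes with the largest gap after water and the 5 with the largest ethanol effect in LbNOX livers, and a panel of ethanol and sugar metabolism genes. A few genes chosen this way are not reported here. The comparison, members and lists were chosen with earlier results of these data known. The contrast uses 6 ethanol libraries, so the fold changes rest on 3 libraries in each ethanol group. Gene places are from GENCODE (GRCm38) and promoter windows from RefSeq (GRCm38.p6), available for 9926 tested genes, with chromosome 18 left out.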

Additional observations from a re-analysis of the deposited data

Results flagged for a closer look

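The count of 227 genes whose ethanol effect differed between the constructs, and each named gene among them, stands out through the test of the difference itself. On the log2 scale the named values below 0 were -7.27 for Adcy10 (a description, since it entered the test through the ethanol luciferase libraries alone), -5.59 for Sorcs2, -3.87 for Ttc25, -3.74 for G6pc, -3.52 for Slc2a4, -3.44 for Tha1, -3.33 for Plcxd1, -3.24 for Thrsp, -2.74 for Gm15443, -2.69 for Acly, -2.68 for Fam47e and -2.63 for 1700001C19Rik. Smaller ones were -2.39 for Tbc1d31, -2.35 for Frmd8, -2.32 for Klf10, -2.27 for Mid1ip1, -2.23 for Fgf21, -2.18 for Zfp407, -2.09 for Trib3, -2.0 for Rpia, -2.0 for Dak, -1.95 for Elovl6, -1.88 for Fgfrl1, -1.69 for Arrdc4, -1.58 for Hlf, -1.41 for Gpi1, -1.32 for Stard4, -1.32 for Rrm2, -1.04 for Slc2a2 and -0.93 for Tarsl2. Values above 0 were 3.34 for Tgtp1, 3.26 for BC023105, 3.12 for Tgtp2, 2.82 for Cxcl10, 2.65 for Usp20, 2.60 for Gm12250, 2.49 for Cyp7a1, 2.34 for Gbp11, 2.23 for Cd274, 2.14 for Gbp10, 2.07 for Irgm2, 1.95 for Tgm1, 1.64 for Iigp1, 1.29 for Irf1, 1.23 for Itih5 and 1.06 for Stat2. The value for Sorcs2 is also a description, since its counts were low outside the ethanol luciferase libraries.

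A library far from the rest of its group was seen for 14 of 236 groups of 4 or 5 libraries, and chance gives about 1 in 20. Of the LbNOX water libraries, M8 held 6 of these, with 62.4 counts for Tha1, 776 for Usp20, 4060 for Sc5d, 5570 for Slc2a2, 1520 for Mdm2 and 1200 for Irf1, and M9 held 533 for Ppp1r3c. Of the luciferase water libraries, M4 had 16.4 counts for Sorcs2, 902 for Ppp1r3c, 1390 for Cmpk2 and 4120 for Rsad2, M3 had 326 for Cd274 and 268 for Il1rn, and M2 had 205 for Rpia.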

How the results depend on the processing

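The 227 called genes (169 lower and 58 higher in LbNOX livers, 74.4% lower) became 151 without a mean-variance trend (112 lower), 705 with array weights (449 lower and 256 higher, 63.7% lower), 633 in DESeq2 (418 lower and 215 higher, 66% lower) and 395 without M3 and M8 (281 lower and 114 higher). Leaving out 1 library gave 64 (without M10) to 403 (without M8) in all, 50 to 272 lower and 13 to 131 higher, and the count moved by over 1.5 times without M13 (110), M15 (70), M6 (86), M7 (94), M9 (127), M12 (83) and M1 (145) as well. The other alternatives gave 191 to 249, edgeR 220 with 207 of the 227. All 3 tools called 207, and 56 of the 227 were called without any 1 library, 48 lower and 8 higher. No called named gene changed sign in any alternative. Signs turned for 2 genes that were not called. Adh1 was 0.20 under quantile normalization and between -0.17 and 0.10 over the left-out libraries, and Ldha was 0.21 and between -0.21 and 0.12. The causes were not tested. No paired analysis was possible because the table's columns carry no replicate number, so the fit with a replicate block was not run. With 3 libraries in each ethanol group and 10600000 to 23700000 reads a library, low genes limit the precision.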

Other observations

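The 56 genes called with every single library left out include some with no place in the lists above, singled out after their values were seen. Among the 48 with a lower ethanol effect in LbNOX livers were Ulk1, the kinase that starts autophagy (-1.90 ± 0.24, adjusted p = 0.00206), Mtor, the kinase of the TOR complexes (-1.01 ± 0.18, adjusted p = 0.013), Fnip2, a folliculin partner in lysosomal nutrient signalling (-1.45 ± 0.24, adjusted p = 0.00815), Prkab1, a subunit of AMP-activated kinase (-0.95 ± 0.15, adjusted p = 0.0081), Clcn7, a lysosomal chloride exchanger (-1.48 ± 0.23, adjusted p = 0.0081), and Ncoa1, a nuclear receptor coactivator (-2.06 ± 0.25, adjusted p = 0.002). Noxo1, an organiser of NADPH oxidase with a low mean of 43.8 counts, was also among them (-4.82 ± 0.74, adjusted p = 0.0081). Col9a3, a collagen chain with a mean of 66.5 counts, had the largest value of the 56 (-6.49 ± 0.82). Its ethanol effect was 6.38 in luciferase livers and -0.11 in LbNOX livers. At such low means the values of Noxo1 and Col9a3 depend in part on the 1 added and are descriptions. The 8 with a higher ethanol effect in LbNOX livers were Sall1 (0.95), Gyk (1.10), Nde1 (1.23), Pnrc1 (1.29), Mxd1 (1.64), Iigp1 (1.64), Gbp10 (2.14) and Apol10b (2.75, with a mean of 44.7 counts). Gyk encodes glycerol kinase, and its ethanol effect was -0.04 in LbNOX livers and -1.14 in luciferase livers.

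Of the 227 called genes, 216 had 1 place in the annotation, and several lay within 100 kb of each other. The share of all tested genes with such a neighbour was not counted. Cep170 and Sdccag8, 593 bases apart on chromosome 1, had opposite signs (-8.62 and 0.86), the first with the low counts given above. Of pairs with the same sign besides Acly and Ttc25, Pus1 and Ulk1 lie 3829 bases apart on chromosome 5 (-0.79 and -1.90), Lrrc28 and Ttc23 2142 bases apart on chromosome 7 (-1.79 and -2.16), Slc26a1 and Fgfrl1 16813 bases apart on chromosome 5 (-1.0 and -1.88), and Rgl3 and Ccdc151 425 bases apart on chromosome 9 (-0.99 and -2.84). Whether reads of 1 gene were counted to its neighbour was not tested.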
